A study of Mus musculus with 18 samples.

Results

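The genes described are 10 components of 2 inflammatory forms of cell death, pyroptosis and necroptosis, taken by name from a table of 41079 mouse genes. They comprise the sensors Nlrp3 and Zbp1, the caspases Casp1, Casp4 and Casp8, the gasdermins Gsdmd and Gsdme, the kinases Ripk1 and Ripk3, and the pseudokinase Mlkl. All 10 were present in the table, and 9 of them reached the mean of 1 FPKM (fragments per kilobase of gene, scaled to a common sequencing depth) needed to enter the test. Nlrp3 stayed below this level and is described without a place in the main test.

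The RNA came from subcutaneous tumors of B16F10, a melanoma cell line, grown in C57BL/6 mice, all female, with 3 tumors in each of 6 groups. Injections into the tumor began on day 6, at a volume near 50 mm3, and were given every 2 days. The tumors were collected 48 h after the last injection. PBS was the vehicle, Free PS473 was an RNA-cleaving Pistol ribozyme directed at the PD-L1 mRNA and given alone, and PS473@CPs was this ribozyme with cationic polymers. NKMOF-101-[Mn] was a manganese metal-organic framework given as the empty carrier, M5@NKMOF-101-[Mn] was the framework with an inactive ribozyme, and PS473@NKMOF-101-[Mn] was the framework with the active ribozyme. The titles of the 3 tumors in the last group carry the framework name NKMOF-102, while their treatment text names NKMOF-101. All tumors share the same host strain and cell line, and the records do not say whether the tumors of a group came from separate cages or experiments, so the p-values measure the spread between these samples.

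Pyroptosis is a lytic death in which inflammatory caspases cut gasdermins, whose released ends form pores in the plasma membrane. NLRP3 assembles the inflammasome that activates caspase-1, while mouse caspase-11, the product of Casp4, responds to lipopolysaccharide in the cytosol. In necroptosis, RIPK1 or ZBP1 engages RIPK3, which phosphorylates MLKL so that it permeabilizes the membrane, and caspase-8 holds this route in check. These proteins are controlled by cleavage and phosphorylation, which RNA levels do not record.

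The promoters of these genes were searched for motifs of interferon and NF-kappaB signaling, the inputs by which cells are known to raise several of them. RefSeq promoters, from 250 bases before to 50 after each start in build GRCm38.p6, were found for 8 of the 10 genes, all but Gsdmd and Zbp1. The interferon-stimulated response element, searched on both strands as GAAA, any 2 bases and GAAA again, was found in 1 of the 8 genes, Ripk1, and in 3.44% of 32851 promoters. The gamma-activated site, searched on both strands as TTCNNNGAA, was found in the same gene and in 8.30% of all promoters. The kappaB motif, also searched on both strands, was found in 2 of the 8 genes, Casp4 and Nlrp3, and in 8.46% of all promoters. Counted by promoter, as these shares are, the 8 genes had 11. Of these, 1 held the response element, 1 the gamma-activated site and 3 the kappaB motif, with overlapping windows of Casp4 among the 3. These stretches are shown because they hold the kappaB matches of the set, with the matches in capitals, overlapping matches merged, on the plus strand of GRCm38.p6 at chr9:5308739-5308823 (Casp4, the 85 bases from -110 to -26 of a start) and chr11:59541359-59541418 (Nlrp3, the 60 bases from -210 to -151).
Casp4: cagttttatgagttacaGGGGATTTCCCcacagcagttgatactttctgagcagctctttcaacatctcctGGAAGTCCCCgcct
Nlrp3: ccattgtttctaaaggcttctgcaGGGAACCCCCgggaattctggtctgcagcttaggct

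A match describes the letters in these windows and is not evidence of binding. The expression of the genes with and without a match is given below, gene by gene.

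Between 17212000 and 28401000 fragments per tumor were recovered from the steps between low FPKM values, and no pair of tumors held identical values. All 10 melanocyte genes checked, led by Dct at a mean of 2686 FPKM, were expressed in every group, with a list score (the mean log2(FPKM + 1) of its genes) of 7.99 to 8.68. The ribozyme target Cd274, which encodes PD-L1, read 9.74, 17.0 and 32.9 FPKM with PS473@NKMOF-101-[Mn] and 12.3, 15.7 and 21.5 FPKM with PBS, and these ranges overlap. It read 11.7, 12.3 and 14.0 FPKM in Free PS473 and 11.9, 12.6 and 24.5 FPKM in PS473@CPs. The values were 14.1, 14.6 and 15.9 FPKM in NKMOF-101-[Mn] and 20.98, 21.8 and 28.2 FPKM in M5@NKMOF-101-[Mn]. Values of Cd274, and below those of Gzmb, Tlr3, Bbc3, Bak1 and Psmb9, are given in rising order within a group. Those of the 10 genes and of S100a9 follow tumors 1 to 3. A list of 23 skin epithelium genes, of which 22 were in the table and none was at 0 in all tumors, set the tumors apart: its score lay between 0.109 and 0.192 in 8 tumors, with at least 1 of them in each group, and reached 3.28 to 6.64 in the highest tumor of each group.

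The set spanned a wide range of FPKM. Each value is divided by 1 deposited gene length, which was 16973 bases for Ripk1 and 12978 for Gsdme. In the GENCODE M21 annotation, of another build, the Ripk1 exons cover 8344 bases. The order of genes by FPKM thus depends in part on these lengths. Ripk1 had 670 to 1160 fragments per tumor and Casp8 1021 to 2002. Casp8 had the highest mean, 20.98 FPKM over the 18 tumors, followed by Zbp1 at 12.6 and Mlkl at 6.60 FPKM. Casp1, Gsdmd, Casp4, Ripk1, Ripk3 and Gsdme had means between 1.33 and 3.58 FPKM, and Nlrp3 had a mean of 0.374 FPKM. The spread between tumors was unequal as well: the highest tumor exceeded the lowest by 31.7 times for Zbp1 and by 11.0 times for Ripk3, but by 1.30 times for Casp8. A single tumor, PS473@NKMOF-101-[Mn] tumor 2, held the highest value of 7 of the 10 genes, and Free PS473 tumors 1 and 2 held the lowest value of 8 of them.

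**Figure D1:**
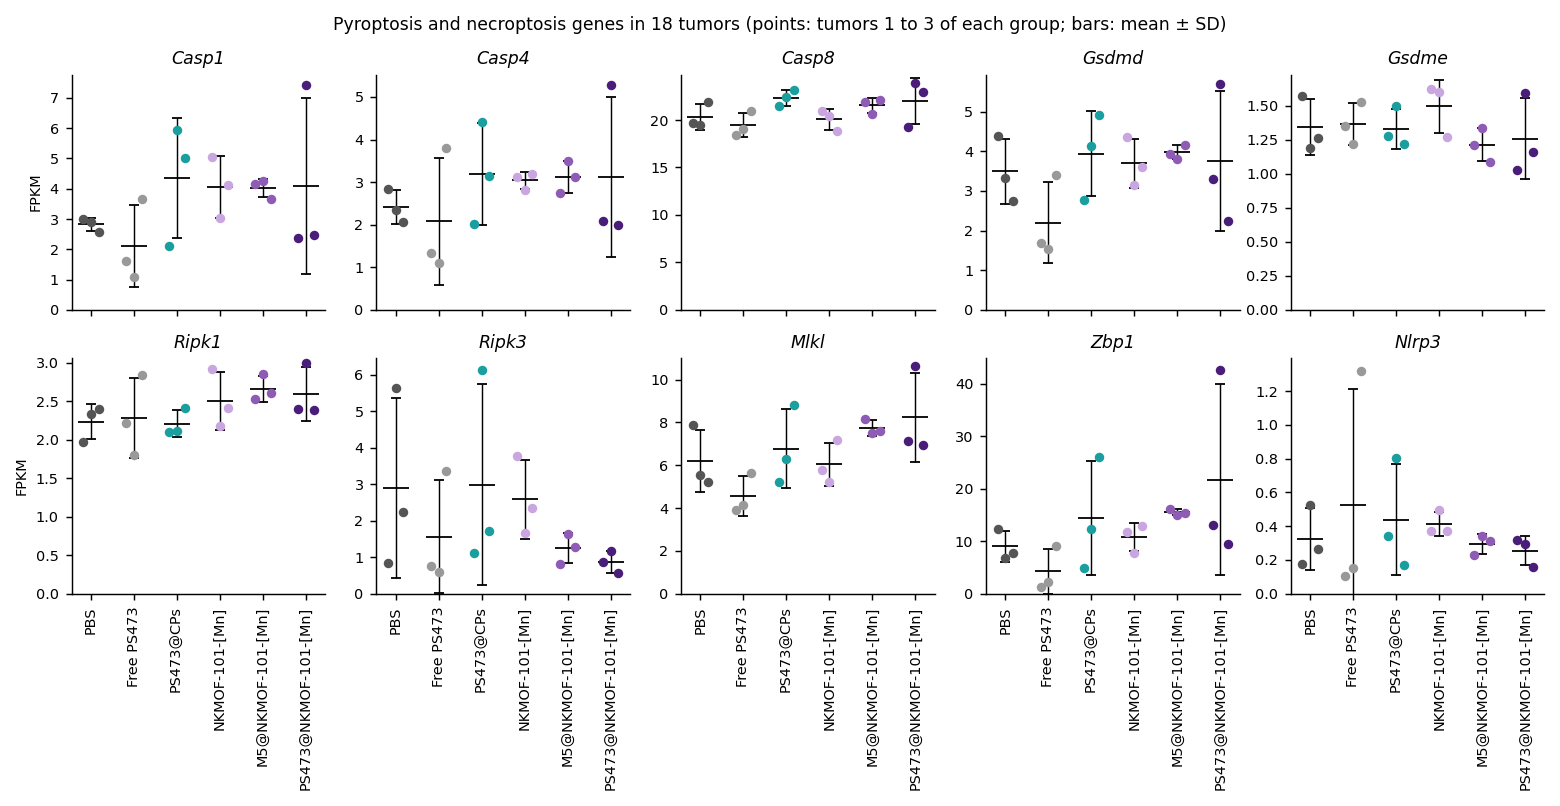
FPKM of the 10 genes in each of the 18 tumors, by group. Points are tumors 1 to 3 from left to right, horizontal bars are group means and vertical bars the SD (n = 3), with axes that start at 0 and so hide the part of an SD bar below 0; Zbp1 ranges from 1.35 to 42.7 FPKM, whereas Casp8 stays between 18.4 and 23.9 FPKM.

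When the 6 group means of each gene were put in order, 49 of the 50 pairs of neighboring groups overlapped in range. The neighboring pair that did not was M5@NKMOF-101-[Mn] and PBS for Casp1. Neighbors in this order are the closest groups by construction, and the same count was not taken over all genes. It therefore does not show how often ranges separate, and some groups farther apart did separate, as given below. Free PS473 had the lowest mean for 6 genes, namely Casp1, Casp4, Casp8, Gsdmd, Mlkl and Zbp1. PS473@CPs had the highest mean for Casp1, Casp4, Casp8 and Ripk3, and PS473@NKMOF-101-[Mn] had it for Mlkl and Zbp1.

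Zbp1 encodes a sensor of Z-form nucleic acids that is itself induced by interferon. It read 12.4, 6.87 and 7.78 FPKM in PBS, 1.35, 2.25 and 9.12 FPKM in Free PS473, and 4.82, 12.4 and 26.1 FPKM in PS473@CPs. With the framework it read 11.7, 7.70 and 12.9 FPKM in NKMOF-101-[Mn], 16.2, 15.0 and 15.4 FPKM in M5@NKMOF-101-[Mn], and 13.0, 42.7 and 9.51 FPKM in PS473@NKMOF-101-[Mn]. The 3 M5@NKMOF-101-[Mn] tumors lay close together and above every PBS tumor, while the PS473@NKMOF-101-[Mn] mean of 21.7 ± 18.2 FPKM (SD, n = 3) was carried by tumor 2. On the log2(FPKM + 1) scale, on which all fold changes are given and which understates those of weakly expressed genes, PS473@NKMOF-101-[Mn] differed by 0.93 (SE 0.60) from PBS and by 0.54 (SE 0.60) from PS473@CPs. M5@NKMOF-101-[Mn] differed from PBS by 0.76 (SE 0.60). Left without its tumor 2, PS473@NKMOF-101-[Mn] gave a difference from PS473@CPs of -0.08, so the direction of this comparison rests on that tumor.

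Nlrp3, the inflammasome sensor, was low but above 0 in every tumor, with 9 to 128 fragments per tumor. It read 0.18, 0.53 and 0.26 FPKM in PBS, 0.10, 0.15 and 1.32 FPKM in Free PS473, and 0.34, 0.80 and 0.17 FPKM in PS473@CPs. The values were 0.37, 0.50 and 0.37 FPKM in NKMOF-101-[Mn], 0.23, 0.34 and 0.31 FPKM in M5@NKMOF-101-[Mn], and 0.32, 0.29 and 0.16 FPKM in PS473@NKMOF-101-[Mn]. The highest and the lowest values of the series both belonged to Free PS473. Neighboring groups in the order of means overlapped, while all M5@NKMOF-101-[Mn] and all PS473@NKMOF-101-[Mn] tumors lay below all NKMOF-101-[Mn] tumors. With the filter lowered to a mean of 0.1 FPKM, Nlrp3 could be tested, and its smallest Benjamini-Hochberg adjusted p over the 9 limma comparisons was 0.981.

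Casp1, which matures interleukin-1beta and interleukin-18 and cuts gasdermin D, read 2.99, 2.90 and 2.58 FPKM in PBS, 1.63, 1.08 and 3.66 FPKM in Free PS473, and 2.11, 5.93 and 5.00 FPKM in PS473@CPs. It read 5.04, 3.02 and 4.13 FPKM in NKMOF-101-[Mn], 4.15, 4.24 and 3.67 FPKM in M5@NKMOF-101-[Mn], and 2.36, 7.44 and 2.46 FPKM in PS473@NKMOF-101-[Mn]. Every NKMOF-101-[Mn] and every M5@NKMOF-101-[Mn] tumor lay above every PBS tumor, whereas 2 of the 3 PS473@NKMOF-101-[Mn] tumors lay below all of them. PS473@NKMOF-101-[Mn] differed by 0.27 (SE 0.36) from PBS and by -0.13 (SE 0.36) from PS473@CPs, and M5@NKMOF-101-[Mn] by 0.39 (SE 0.36) from PBS. The first of these was -0.16 without PS473@NKMOF-101-[Mn] tumor 2.

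Casp4, a neighbor of Casp1 on chromosome 9 and the gene whose promoter stretch with kappaB letters is printed above, had a similar spread at slightly lower levels. Its group means were 2.41 ± 0.396 FPKM in PBS, 2.08 ± 1.49 in Free PS473, 3.19 ± 1.19 in PS473@CPs, 3.04 ± 0.207 in NKMOF-101-[Mn], 3.12 ± 0.370 in M5@NKMOF-101-[Mn] and 3.12 ± 1.88 in PS473@NKMOF-101-[Mn] (SD, n = 3). Tumor 2 of the last group, at 5.29 FPKM, was the highest of the series, and the other tumors of that group, at 2.08 and 1.99 FPKM, lay below the PBS mean. The log2 differences were 0.19 (SE 0.31) from PBS and -0.08 (SE 0.31) from PS473@CPs, and M5@NKMOF-101-[Mn] differed from PBS by 0.28 (SE 0.31). The counting tool is not given in the sources used here, so a share of reads exchanged between Casp1, Casp4 and the related Casp12 cannot be judged.

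Casp8, the initiator caspase that triggers apoptosis downstream of death receptors and cleaves RIPK1 and RIPK3, was the most even gene of the set. Its values ran from 18.4 FPKM in Free PS473 tumor 1 to 23.9 FPKM in PS473@NKMOF-101-[Mn] tumor 2, with group means between 19.5 ± 1.30 FPKM in Free PS473 and 22.3 ± 0.847 FPKM in PS473@CPs (SD, n = 3). The difference between PS473@NKMOF-101-[Mn] and PBS was 0.11 (SE 0.09), with a 95% interval from -0.08 to 0.29. PS473@NKMOF-101-[Mn] differed from PS473@CPs by -0.02 (SE 0.09), and M5@NKMOF-101-[Mn] from PBS by 0.08 (SE 0.09).

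Gsdmd encodes the pore protein cut by caspase-1 and caspase-11. It read 4.39, 3.32 and 2.75 FPKM in PBS, 1.69, 1.53 and 3.39 FPKM in Free PS473, and 2.78, 4.12 and 4.90 FPKM in PS473@CPs. With the framework it read 4.36, 3.14 and 3.60 FPKM in NKMOF-101-[Mn], 3.94, 3.81 and 4.16 FPKM in M5@NKMOF-101-[Mn], and 3.29, 5.71 and 2.25 FPKM in PS473@NKMOF-101-[Mn]. Free PS473 tumors 1 and 2 were the lowest of the series, and tumor 3 of that group lay within the PBS range. PS473@NKMOF-101-[Mn] differed by 0.03 (SE 0.26) from PBS and by -0.10 (SE 0.26) from PS473@CPs, and M5@NKMOF-101-[Mn] by 0.16 (SE 0.26) from PBS. The second gasdermin, Gsdme, which is cut by caspase-3 and can turn apoptosis into lysis, was even, from 1.03 to 1.62 FPKM. Its differences were -0.06 (SE 0.12) between PS473@NKMOF-101-[Mn] and PBS, -0.05 (SE 0.12) against PS473@CPs, and -0.08 (SE 0.12) between M5@NKMOF-101-[Mn] and PBS.

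Ripk1, the scaffold kinase below the TNF receptor, ranged from 1.80 to 2.99 FPKM. All M5@NKMOF-101-[Mn] tumors (2.53, 2.85 and 2.60 FPKM) lay above all PBS tumors (1.97, 2.33 and 2.39 FPKM), a difference of 0.18 (SE 0.12). PS473@NKMOF-101-[Mn] differed by 0.15 (SE 0.12) from PBS and by 0.16 (SE 0.12) from PS473@CPs. Exons of Gm17084 on the same strand and of Serpinb6a on the opposite strand cover 6.12% and 2.89% of the Ripk1 exon bases in the GENCODE M21 annotation, so some of its fragments may be theirs.

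Ripk3, the kinase that activates MLKL, was high in a few tumors of several groups. It read 0.84, 5.62 and 2.23 FPKM in PBS, 0.75, 0.58 and 3.36 FPKM in Free PS473, and 1.11, 6.14 and 1.70 FPKM in PS473@CPs. The values were 3.76, 1.65 and 2.34 FPKM in NKMOF-101-[Mn], 0.82, 1.63 and 1.27 FPKM in M5@NKMOF-101-[Mn], and 0.88, 1.17 and 0.56 FPKM in PS473@NKMOF-101-[Mn]. The 4 highest tumors came from 4 different groups, and all PS473@NKMOF-101-[Mn] tumors lay below all NKMOF-101-[Mn] tumors. PS473@NKMOF-101-[Mn] differed by -0.88 (SE 0.50) from PBS, with a 95% interval from -1.95 to 0.19, and by -0.89 (SE 0.50) from PS473@CPs. M5@NKMOF-101-[Mn] differed from PBS by -0.62 (SE 0.50). With the skin epithelium score as a covariate, an alternative added after the data were seen, these 3 differences were -0.31, -0.56 and -0.06.

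Mlkl encodes the executioner of necroptosis. It read 7.87, 5.54 and 5.21 FPKM in PBS, 3.92, 4.13 and 5.62 FPKM in Free PS473, and 5.23, 6.28 and 8.82 FPKM in PS473@CPs. With the framework it read 5.77, 5.22 and 7.16 FPKM in NKMOF-101-[Mn], 8.18, 7.49 and 7.58 FPKM in M5@NKMOF-101-[Mn], and 7.15, 10.6 and 6.94 FPKM in PS473@NKMOF-101-[Mn]. All tumors that received an active or inactive ribozyme in the framework lay above all Free PS473 tumors, and the PBS range reached into both of those groups. PS473@NKMOF-101-[Mn] differed by 0.35 (SE 0.19) from PBS and by 0.25 (SE 0.19) from PS473@CPs, and M5@NKMOF-101-[Mn] by 0.30 (SE 0.19) from PBS.

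The question of the design is whether the active ribozyme in the framework gave other RNA levels than its components. In the limma F test over the 6 groups, none of the 9 genes tested passed a Benjamini-Hochberg adjusted p of 0.05, as was the case for all 12357 genes tested (0%). At an unadjusted p under 0.05 the F test held 2 of the 9, Mlkl and Zbp1, against 1.99% of all genes tested. In each of the 9 pairwise comparisons, 0 of the 9 genes and 0% of all genes passed the adjusted threshold with a fold above 2. The smallest adjusted p of the 9 genes in limma was 0.993 for PS473@NKMOF-101-[Mn] against PBS, 0.996 against PS473@CPs and 0.999 for M5@NKMOF-101-[Mn] against PBS. At an unadjusted p under 0.05, 0 of the 9 were found in PS473@NKMOF-101-[Mn] against PBS (2.1% of all genes), PS473@CPs (2.29%), NKMOF-101-[Mn] (2.3%) and M5@NKMOF-101-[Mn] (0.591%). The same count was 0 for Free PS473 (1.81%), PS473@CPs (2.09%), NKMOF-101-[Mn] (1.46%) and M5@NKMOF-101-[Mn] (1.51%), each against PBS.

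Weighting the tumors by limma's array weights was the 1 setting that made adjusted calls among these genes. It called 7 of the 9 in the F test (Casp1, Casp4, Casp8, Gsdmd, Ripk3, Mlkl and Zbp1) along with 2310 of all genes, but the estimation of the weights stopped before convergence, with weights from 0.206 for PS473@NKMOF-101-[Mn] tumor 3 to 17.1 for Free PS473 tumor 1.

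**Figure D2:**
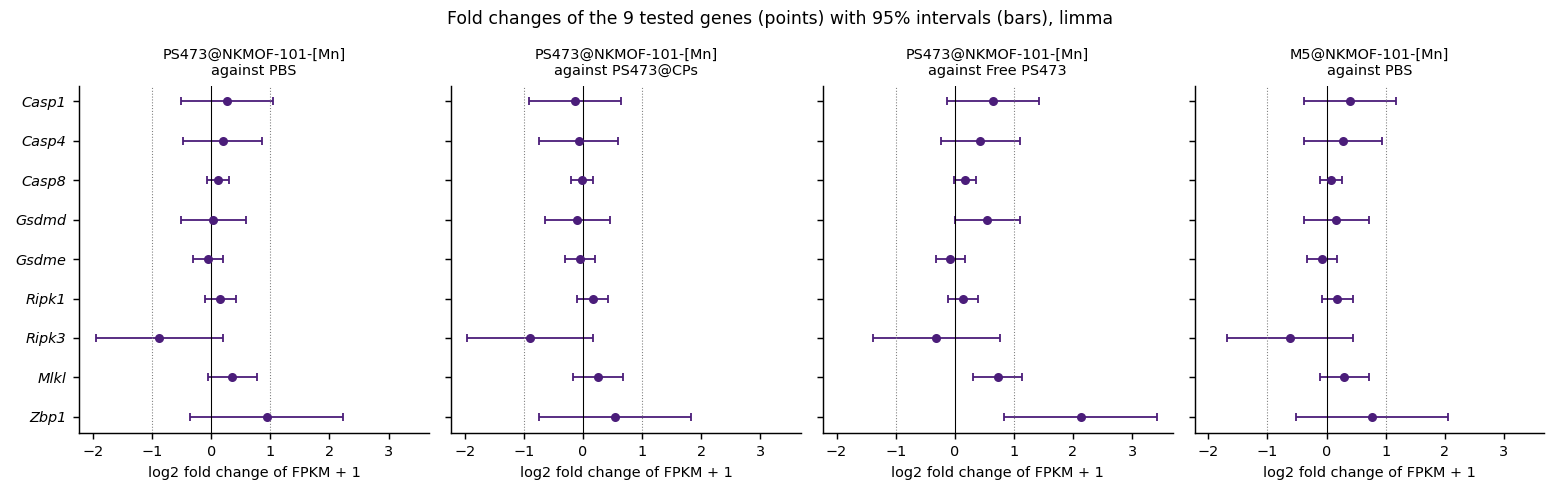
Fold changes of the 9 tested genes in 4 comparisons, as log2 of FPKM + 1, with points for the estimate and bars for its 95% interval from the limma fit of 18 tumors. Dotted lines mark a fold of 2; against PBS and PS473@CPs every interval crosses 0, and against Free PS473 those of Zbp1 (0.84 to 3.42), Mlkl (0.31 to 1.14) and Gsdmd (0.0004 to 1.10) lie above it, with none of the 3 passing the adjusted threshold.

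For Zbp1 and Mlkl, the largest of the 9 pairwise differences was that with Free PS473. PS473@NKMOF-101-[Mn] exceeded Free PS473 by 2.13 (SE 0.60) for Zbp1 and by 0.72 (SE 0.19) for Mlkl, the ranges of both genes did not overlap, and both had an adjusted p of 0.781 by limma with Benjamini-Hochberg adjustment. Gsdmd differed by 0.55 (SE 0.26; adjusted p = 0.960 by limma), with overlapping ranges. These 3 of 9 genes stood at an unadjusted p under 0.05, where 4.98% of all genes did. The median difference of the 9 genes was 0.43, and that of all genes tested was -0.04. Without Free PS473 tumor 3, whose leukocyte score of 3.94 was above those of tumors 1 and 2 (2.45 and 2.03), the count was 6 of 9, where 5.15% of all genes stood at this level. The part of leukocytes in the result was not tested. The count was 2 of 9 without Free PS473 tumor 1 (2.77% of all genes) and 2 of 9 without tumor 2 (7.23%). Leaving out PS473@NKMOF-101-[Mn] tumor 2 lowered the difference to 1.51 for Zbp1, 0.55 for Mlkl and 0.27 for Gsdmd. In bulk tissue, fewer cells of a type and less RNA per cell cannot be told apart.

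Free PS473 itself lay below PBS for 7 of the 9 genes, and for 5008 of all 12357 genes tested. The medians were -0.37 and 0.03, and the adjusted threshold was passed by none. Without Free PS473 tumor 3, 4 of the 9 genes and 4.9% of all genes stood at an unadjusted p under 0.05 in this comparison, against 0 of 9 with it. Tumor 3 held the highest value of its group for each of these genes, so its removal lowers the group means. The count was 0 of 9 without Free PS473 tumor 1 (0.712% of all genes) and 0 of 9 without tumor 2 (2.99%). A contrast added after the values were seen asked whether the effect of PS473 differed with the framework (against NKMOF-101-[Mn]) and without it (against PBS). The difference of the effects was 1.88 (SE 0.85) for Zbp1 and 0.75 (SE 0.27) for Mlkl, with an adjusted p above 0.999 in limma for both and for the other 7 genes. At an unadjusted p under 0.05 this contrast held these 2 of 9 genes and 2.68% of all genes, and 0 genes (0%) after adjustment.

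Across the 18 tumors the genes fell into sets that moved together. Of the 45 pairs, 19 had a Pearson correlation with a Benjamini-Hochberg adjusted permutation p under 0.05, 3 were negative, and the median r was 0.49. The same share was not taken over pairs of other genes. The count thus does not show that these genes move together more than others in these tumors. The closest pairs were Casp1 with Casp4 (r = 0.947, rho = 0.897) and Mlkl with Zbp1 (r = 0.946, rho = 0.940). For both the permutation p of r was 1e-05, the smallest that the 100000 resamples can give, and the adjusted p was 6e-05. Without the 2 tumors farthest from the median, r was 0.901 and 0.913. Gsdmd correlated with Zbp1 (r = 0.911, rho = 0.796) and Casp1 (r = 0.905, rho = 0.856), both again with a permutation p of 1e-05 for r, and r was 0.818 and 0.829 without the 2 farthest tumors. Ripk3 was correlated with Nlrp3 (r = 0.714, rho = 0.814, with adjusted permutation p of 0.00614 and 0.00063; r = 0.664 without 2 tumors), but its r with its substrate gene Mlkl was -0.101 (rho = -0.032, with adjusted permutation p of 0.758 and 0.947). All genes share the libraries, and the correlations within groups, after the group means were taken out, were 0.935 for Casp1 with Casp4, 0.913 for Mlkl with Zbp1 and 0.786 for Ripk3 with Nlrp3.

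**Figure D3:**
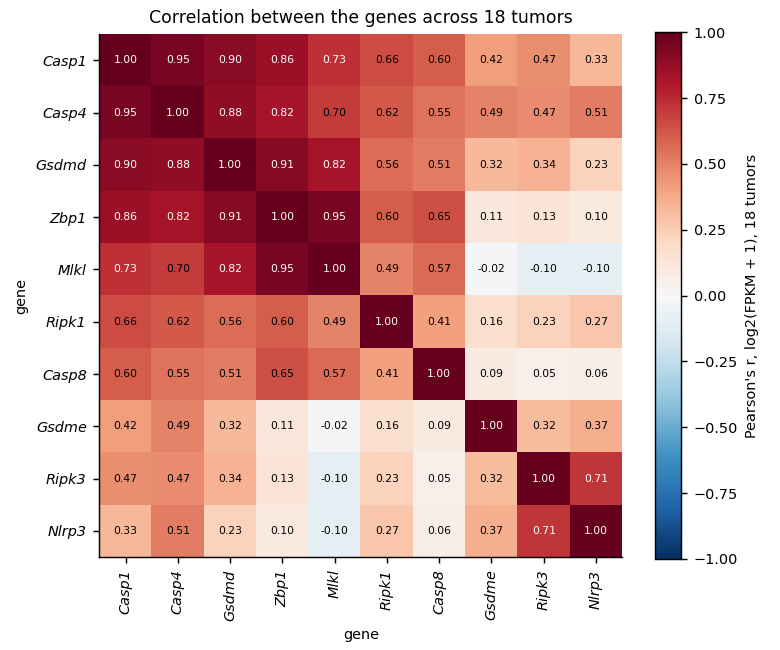
Pearson's r between the 10 genes over 18 tumors, from log2(FPKM + 1), with red for positive and blue for negative values. Casp1, Casp4, Gsdmd, Zbp1 and Mlkl form a block with r from 0.696 (Casp4 with Mlkl) to 0.947, while Ripk3 and Nlrp3 correlate at 0.71 with each other and near 0 with Mlkl.

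Scores of 4 gene lists were set beside each gene, with the skin score taken in 2 sets of tumors, which gives 50 correlations, of which 16 had an adjusted permutation p of r under 0.05. This count was not taken for other genes either. With the 31 interferon response genes of the table, none of them a member of the set, Zbp1 correlated at r = 0.961 (rho = 0.963), Mlkl at 0.933 (rho = 0.909), Gsdmd at 0.912 (rho = 0.851) and Casp1 at 0.882 (rho = 0.849). For these 4 genes the permutation p of r was 1e-05, the smallest possible, and the adjusted p was 0.0001. Without the 2 farthest tumors r was 0.952, 0.907, 0.867 and 0.767. Casp4 (r = 0.823, rho = 0.756), Ripk1 (r = 0.647, rho = 0.744) and Casp8 (r = 0.618, rho = 0.492) followed, with adjusted permutation p of 0.000286, 0.0132 and 0.0168 for r and of 0.00343, 0.00381 and 0.108 for rho. Their r was 0.642, 0.339 and 0.410 without the 2 farthest tumors, so those of Ripk1 and Casp8 rest in part on these tumors. The interferon score ran from 2.63 in Free PS473 tumor 2 to 5.00 in PS473@NKMOF-101-[Mn] tumor 2, which are among the tumors that hold the lowest and highest values of the set. Of the 6 interferon genes listed, 4 were at 0 in all tumors, and Ifng was the highest with a mean of 0.376 FPKM. Ripk3, Nlrp3 and Gsdme had r of 0.104, 0.028 and 0.156 with the interferon score, with adjusted permutation p of 0.810, 0.923 and 0.713 (rho 0.234, 0.119 and -0.018).

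With the 7 leukocyte genes, all expressed above the filter, Casp4 correlated at r = 0.876 (rho = 0.889) and Casp1 at 0.871 (rho = 0.884), with adjusted permutation p of 0.0001 and 0.000167 for r, and 0.765 and 0.764 without the 2 farthest tumors. Gsdmd (r = 0.784, rho = 0.688), Ripk1 (r = 0.758, rho = 0.742) and Zbp1 (r = 0.706, rho = 0.542) followed, with adjusted permutation p of 0.000938, 0.0015 and 0.005 for r, and r of 0.550, 0.673 and 0.417 without 2 tumors. Ripk3 had r = 0.588 (rho = 0.682, with adjusted permutation p of 0.0317 and 0.0118), which was 0.493 without 2 tumors. The leukocyte score ranged from 3.10 to 3.47 in PBS, 2.03 to 3.94 in Free PS473 and 2.92 to 3.74 in PS473@CPs. It was 3.53 to 4.21 in NKMOF-101-[Mn], 3.30 to 4.19 in M5@NKMOF-101-[Mn] and 2.80 to 4.02 in PS473@NKMOF-101-[Mn]. All NKMOF-101-[Mn] tumors thus lay above all PBS tumors in leukocyte score, as they did in Casp1, and the part of leukocyte content in the Casp1 difference was not tested.

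Ripk3 correlated with skin epithelium genes, and inversely with melanocyte genes. Its r with the melanocyte score was -0.704 (rho = -0.587, with adjusted permutation p of 0.00541 and 0.0396), and -0.566 without the 2 farthest tumors. Nlrp3 had an r of -0.638 (rho = -0.573, with adjusted permutation p of 0.00938 and 0.0485), which was -0.307 without 2 tumors and so rests on them. Because the skin score split the tumors at about 0.5, a limit set after the scores were seen, no pooled r is given. Among the 10 tumors above the limit, Ripk3 correlated with the skin score at r = 0.825 (rho = 0.794, with adjusted permutation p of 0.0143 and 0.0341), and at 0.640 without 2 tumors. Among the 8 tumors below it, r was 0.483 (adjusted p = 0.383 in the exact permutation test), with rho = 0.119 (adjusted p = 0.881 in the same test). Ripk3 had a median of 2.28 FPKM (0.56 to 6.14) in the first set and 0.86 FPKM (0.58 to 1.65) in the second.

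The skin score reached 6.44 in PBS, 3.49 in Free PS473, 6.64 in PS473@CPs, 5.21 in NKMOF-101-[Mn], 3.89 in M5@NKMOF-101-[Mn] and 3.28 in PS473@NKMOF-101-[Mn], and its lowest values were 0.139, 0.109, 0.124, 0.134, 0.139 and 0.144. With the skin score as a covariate, 0 of the 9 genes passed the adjusted threshold, and 2 stood at an unadjusted p under 0.05 in the F test, which is the same count as without it.

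**Figure D4:**
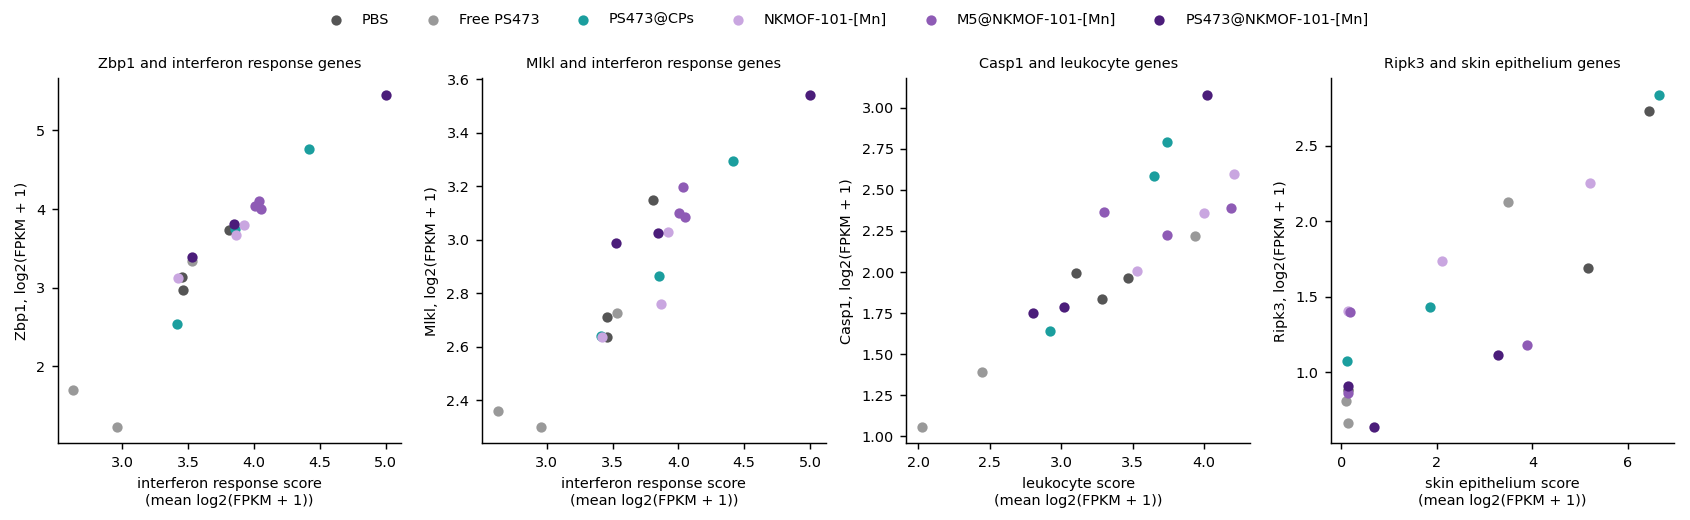
Levels of 4 genes, as log2(FPKM + 1), against gene list scores (mean log2(FPKM + 1) of the list), 1 point per tumor and colored by group. Zbp1 and Mlkl increase with the interferon response score (r = 0.961 and 0.933) and Casp1 with the leukocyte score (r = 0.871), whereas the highest Ripk3 values are those of the tumors with the highest skin epithelium scores.

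Other genes of the same pathways were taken from lists, and 0 passed an adjusted p of 0.05 in the limma F test or in any pairwise comparison. Of the 5 inflammasome sensors and adaptors tested, 0 stood at an unadjusted p under 0.05 in the F test. Those with the smallest F-test p were Nek7, a partner of NLRP3 (13.8 to 20.4 FPKM), the adaptor Pycard (4.66 to 15.0 FPKM) and Nlrc5, a regulator of MHC class I genes (8.48 to 42.6 FPKM), which was also the most abundant with a mean of 21.9 FPKM. A further 13 of the 18 listed, Aim2, Nlrc4 and Mefv among them, had means below 1 FPKM or were not in the table. Of the 5 tested, 5 lay above Free PS473 in the PS473@NKMOF-101-[Mn] group (median 0.22) and 2 lay above PBS (median -0.03). Over all 12357 genes tested, 4762 and 5736 did. The count above PBS was 4 in M5@NKMOF-101-[Mn], 2 in NKMOF-101-[Mn], 0 in PS473@CPs and 0 in Free PS473. In Free PS473 against PBS, 2 of the 5 were lower at an unadjusted p under 0.05, where 1.81% of all genes stood at this level.

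Among the 9 pyroptosis substrates and effectors tested, the smallest F-test p belonged to Gzmb, Casp12 and Il18bp, and 0 were at an unadjusted p under 0.05. Gzmb, the granzyme that can cut gasdermin E, read 0.08, 0.38 and 0.48 FPKM in Free PS473 and 1.06, 1.08 and 6.81 FPKM in PS473@NKMOF-101-[Mn]. In PS473@CPs it read 0.52, 3.77 and 4.04 FPKM, so that 2 of these 3 tumors lay above 2 of the 3 PS473@NKMOF-101-[Mn] tumors. Ninj1, which ruptures the membrane of dying cells, was the most abundant of the list with a mean of 86.4 FPKM (72.3 to 122), and Il1a and Il1b had means below 1 FPKM. In PS473@NKMOF-101-[Mn] 6 of the 9 lay above PBS, with a median of 0.08, where 5736 of all 12357 genes tested did. The count was 7 in M5@NKMOF-101-[Mn], 7 in PS473@CPs, 6 in NKMOF-101-[Mn] and 4 in Free PS473.

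Of 28 genes upstream of necroptosis or restraining it, 1 stood at an unadjusted p under 0.05 in the F test. This was Tlr3, the sensor of double-stranded RNA that signals through the same protein motif as RIPK3 and ZBP1. It read 3.46, 3.65 and 3.89 FPKM in M5@NKMOF-101-[Mn] and 3.05, 3.10 and 6.10 FPKM in PS473@NKMOF-101-[Mn], all above the PBS values of 2.43, 2.49 and 2.95 FPKM and the Free PS473 values of 1.93, 2.28 and 2.32 FPKM. PS473@CPs (2.46, 2.95 and 3.82 FPKM) and NKMOF-101-[Mn] (2.68, 2.71 and 3.14 FPKM) overlapped with both sets. Tnip1 (8.51 to 15.2 FPKM) and the deubiquitinase gene Cyld (2.19 to 3.87 FPKM) came next, and Tnfrsf1a, the TNF receptor gene, was the most abundant with a mean of 55.7 FPKM. In PS473@NKMOF-101-[Mn] 19 of the 28 lay above PBS, with a median of 0.06, where 5736 of all 12357 genes tested did. The count was 18 in M5@NKMOF-101-[Mn], 17 in NKMOF-101-[Mn], 14 in PS473@CPs and 11 in Free PS473.

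The 10 genes of membrane repair and damage signals included Chmp4b, an ESCRT subunit with the highest mean of the list (101 FPKM, 92.7 to 116), Vps4b (21.3 to 29.8 FPKM) and S100a9. S100a9, a neutrophil and keratinocyte alarmin gene, read 0.400, 209 and 70.5 FPKM in PBS tumors 1 to 3, 0.145, 0.170 and 66.7 FPKM in Free PS473, and 0.217, 119 and 0.231 FPKM in PS473@CPs. It read 0.277, 0.312 and 0.143 FPKM in PS473@NKMOF-101-[Mn]. Over all framework groups it ran from a value listed at 0 to 7.84 FPKM, so that every group held at least 1 tumor below 1 FPKM. The 4 highest tumors, PBS 2 and 3, Free PS473 3 and PS473@CPs 2, had skin epithelium scores of 6.44, 5.16, 3.49 and 6.64, and the part of skin cells in these values was not tested. In PS473@NKMOF-101-[Mn] against PBS, 2 of the 10, S100a9 among them, were lower at an unadjusted p under 0.05 and 0 were higher. At this level stood 2.1% of all genes. None of the 10 stood at an unadjusted p under 0.05 in the F test. Of 22 apoptosis genes, led by Cycs with a mean of 86.8 FPKM, 0 did either, and Bbc3 and Bak1 were among those with the smallest F-test p. Bbc3, the p53 target PUMA, read 2.37, 4.01 and 4.93 FPKM in Free PS473 and 1.74 to 2.93 FPKM elsewhere. Bak1 read 56.7, 58.3 and 73.7 FPKM in PS473@NKMOF-101-[Mn], 53.6 to 59.3 FPKM in M5@NKMOF-101-[Mn] and 52.5 to 55.2 FPKM in NKMOF-101-[Mn]. Its range was 46.1 to 52.0 FPKM in PBS, 50.6 to 54.4 FPKM in Free PS473 and 46.0 to 57.9 FPKM in PS473@CPs. In PS473@NKMOF-101-[Mn], 5 of the 10 repair and damage genes and 15 of the 22 apoptosis genes lay above PBS, with medians of -0.01 and 0.08. Over all 12357 genes tested, 5736 did. The apoptosis count was 15 in Free PS473, 15 in PS473@CPs, 18 in NKMOF-101-[Mn] and 16 in M5@NKMOF-101-[Mn]. The repair and damage count was 2, 6, 5 and 4 in the same order of groups.

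Of the 31 interferon response genes tested, 0 passed the adjusted threshold. All 31 lay above PBS in PS473@NKMOF-101-[Mn], with a median of 0.57 where that of all tested genes was -0.01. The count above PBS was also 31 in M5@NKMOF-101-[Mn] (median 0.47), 29 in PS473@CPs, 28 in NKMOF-101-[Mn] and 0 in Free PS473 (median -0.53). The interferon score was 3.85, 5.00 and 3.53 in PS473@NKMOF-101-[Mn] tumors 1 to 3 and ran from 3.46 to 3.81 in PBS. Of the 31, 6 lay above PBS in PS473@NKMOF-101-[Mn] at an unadjusted p under 0.05 (2.1% of all genes). In Free PS473, 6 lay below PBS at this level (1.81%). For PS473@NKMOF-101-[Mn] against Free PS473, 25 of the 31 stood at this level, where 4.98% of all genes did, with a median of 1.08. In the F test 11 of the 31 did, and 1.99% of all genes. Among those with the smallest p were B2m, the light chain of MHC class I and the most abundant with a mean of 1684 FPKM, and Psmb9, an immunoproteasome subunit. Psmb9 read 14.6, 16.2 and 43.2 FPKM in Free PS473, 32.5, 36.5 and 69.0 FPKM in PBS, and 46.3, 51.0 and 86.2 FPKM in PS473@NKMOF-101-[Mn]. All values of the last group lay above those of Free PS473, and both ranges overlapped with that of PBS. Psmb9 read 58.9, 63.4 and 65.5 FPKM in M5@NKMOF-101-[Mn], 34.4, 44.3 and 64.1 FPKM in PS473@CPs, and 38.6, 45.7 and 48.2 FPKM in NKMOF-101-[Mn].

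The genes whose profile over the 18 tumors was most like the mean of the 9 tested genes, by Pearson's r of log2(FPKM + 1), were H2-T23 (0.955), Gbp5 (0.954), Iigp1 (0.950), Irf8 (0.948) and Gbp2 (0.947). The single closest gene was Ifi204 for Casp1 (0.967), Casp12 for Casp4 (0.935), Ly6c2 for Casp8 (0.812), H2-D1 for Gsdmd (0.955) and Golt1b for Gsdme (0.879). It was Fyb1 for Ripk1 (0.859), Il4ra for Ripk3 (0.982), Parp9 for Mlkl (0.982) and Igtp for Zbp1 (0.981). These values are the best of 12357 genes searched and describe likeness over shared libraries only.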

How the data were processed

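RNA from 18 tumors in 6 groups of 3 was enriched for poly(A), and the authors deposited FPKM values and 1 gene length for each of 41079 genes. The submitters' processing notes name genome build GRCm39. The aligner, counting tool and annotation are not given in the sources used here. FPKM was used by gene symbol; positions come from the GENCODE M21 annotation of GRCm38 and from RefSeq promoters of GRCm38.p6, which is another build than that of the values. The step between low values gave the fragments per tumor. Between 47.2% and 51.2% of low values were whole fragments within 0.01, so no count model was used.

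Genes averaging 1 FPKM or more (12357) were fitted as log2(FPKM + 1) with limma 3.58.1 in R 4.3.3 (1 mean per group, trend in the prior variance), with Benjamini-Hochberg adjustment within each comparison over all these genes. Calls needed an adjusted p under 0.05 and, between 2 groups, a fold above 2. The procedure was tested on simulated data. Correlations used 100000 resamples, or all orders for 8 tumors, two-sided, in Python 3.11.15 with numpy 2.4.6, and the within-group values have the group means taken out. Alternatives were a pseudocount of 0.1, a filter at a mean of 0.1 FPKM, no filter, quantile normalization, upper-quartile scaling, no trend, array weights, a replicate block, the 2 groups compared alone, and leaving out each tumor. The skin score covariate, the contrast of the PS473 effects and the skin score limit were added after the data were seen.

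The 10 genes, the lists and the tests were chosen with earlier results of these data known. Besides the 10, the genes named are those of each pathway list with the smallest F-test p and the highest mean, Cd274, and the most alike profiles. Of these, 2 are not reported here. Dct, Ninj1, Il1a, Il1b, Aim2, Nlrc4, Mefv and Ifng were named as the leading or missing genes of their lists.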

Additional observations from a re-analysis of the deposited data

How the results depend on the processing

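Array weights, whose estimation did not converge, called 7 of the 9 genes in the F test (2310 of 12357 genes), 1 (Zbp1, a log2 difference of 2.93 with an adjusted p of 0.00147 in limma) in PS473@NKMOF-101-[Mn] against Free PS473 (122 of 12357) and 2 in Free PS473 against PBS (335 of 12357), each against 0 in the reported fit. The cause was not tested. With every other setting 0 genes of the set were called in all 10 tests, and the adjusted p in limma against Free PS473 ranged from 0.279 to about 1.00 for Zbp1 and from 0.310 to about 1.00 for Mlkl. Over all genes, some of these settings made calls, such as 4 genes in the F test with no filter. Another was 1 gene in PS473@CPs against PBS with the 2 groups compared alone. In the F test, leaving out each tumor gave 0 to 3 of the 9 genes at an unadjusted p under 0.05 (1.05% to 3.66% of all genes), and 2 to 6 against Free PS473 (2.77% to 8.46%).

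Small differences changed sign. Against PS473@CPs, PS473@NKMOF-101-[Mn] gave 0.0337 for Casp1, 0.0475 for Casp4 and 0.001 for Casp8 with the skin score as a covariate, and 0.0107 for Casp8 and 0.0168 for Gsdme with quantile normalization. Against PBS it gave -0.0233 for Casp8 with array weights and 0.0906 for Gsdme with quantile normalization, under which Gsdme was 0.0098 in M5@NKMOF-101-[Mn] against PBS. Leaving out 1 tumor at a time gave, against PBS, -0.16 to 0.50 for Casp1, -0.16 to 0.38 for Casp4, -0.25 to 0.27 for Gsdmd and -0.16 to 0.0176 for Gsdme. Against PS473@CPs the ranges were -0.57 to 0.0946 for Casp1, -0.43 to 0.13 for Casp4, -0.0822 to 0.0657 for Casp8, -0.38 to 0.14 for Gsdmd, -0.16 to 0.0216 for Gsdme and -0.0797 to 1.08 for Zbp1.

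With the replicate block, 0 genes were called in the F test and in each comparison. Deviations from the group means of tumors with the same number correlated from -0.73 to 0.72. The median r was 0.31 for tumors numbered 1, with 10 of 15 pairs over 0.1, and -0.16 and -0.02 for numbers 2 and 3. With 3 tumors per group, these values cannot show whether the numbers mark a pairing or a batch. With 3 tumors per group and intervals over 2 log2 units wide for Zbp1 and Ripk3, the absence of a call does not show equal levels.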
